A study of Mus musculus with 18 samples.

Results

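A set of 40 genes that are used mainly in germ cells was followed through 18 RNA-seq samples of mouse embryonic stem (ES) cells. The genes were chosen by name, as germline genes known for methylated promoters or for being restricted to germ cells, and were kept where the deposited count table held at least 10 counts over the 18 samples. The choice was made with earlier results of these data known, so shares of the set beside those of all genes are descriptions of these genes only. Of the 40, 39 met this rule, out of 49671 genes in the table. Only Nanos2, an RNA-binding protein of male germ cells, did not, with 7 counts in all. The counts hold no measurement of methylation. They hold the transcripts of the germline genes and of the enzymes that write and remove the mark.

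In somatic tissues many germline promoters are rich in CpG and carry DNA methylation, which keeps the genes off. The de novo methyltransferases Dnmt3a and Dnmt3b place the mark as the epiblast leaves naive pluripotency, Dnmt1 with Uhrf1 copies it at replication, and the Tet enzymes oxidise it. Some of the same promoters are also held off by a Polycomb complex, PRC1.6, whose DNA-binding subunits Mga with Max and E2f6 with Tfdp1 recognise an E-box and an E2F motif. The proteins of the set work later, in transposon silencing by piRNAs, in the pairing of meiotic chromosomes and in spermatogenesis.

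Wild-type E14 ES cells (strain 12910la in the labels, passage 20), kept before in 2i with Lif, were grown for 48 h in growth factor-depleted Matrigel and N2B27 medium in 4 groups of 3 samples: DMSO, the control; CH, the Gsk3 inhibitor CHIR99021 at 3 µM; 2i, CHIR99021 at 3 µM with the Mek inhibitor PD0325901 at 0.4 µM; and Fgf2/Activin, Fgf2 at 12 ng/ml with Activin A at 20 ng/ml, which moves ES cells to an epiblast-like state. The other 6 samples were Esrrb fl/fl ES cells at passage 25, from Acr-EGFP transgenic mice, that expressed a tamoxifen-inducible Cre (MerCreMer). All 6 were grown for 24 h in Matrigel with CHIR99021 at 3 µM. The 3 Esrrb null samples had 4OHT for 1 day before, and the 3 Esrrb floxed samples had none, so that loss of Esrrb and exposure to 4OHT with active Cre cannot be told apart. Nothing in the labels says that samples of a group came from separate cultures started on different days, so p-values measure the spread between these samples only.

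Of the whole series the following bears on the germline genes. The E14 samples held 25388139 to 37158661 counts and the Esrrb fl/fl samples 19915222 to 20140699, so that 3 counts came to at most 0.12 and 0.159 CPM, counts scaled to TMM-adjusted library sizes. In every group replicates 2 and 3 were closer to each other than to replicate 1: the chi-square per gene between replicates, near 1 for counting noise alone, was 1.46 to 8.57 for pairs without replicate 1 and 11.8 to 65.9 for pairs with it. In the Esrrb null samples the Esrrb gene kept 1211 to 1333 counts against 2109 to 2680 in the floxed samples (log2 fold change -0.99, not called). The counts are per gene, so whether these reads came from exons that the deletion leaves in place was not tested. All 6 ES cell markers averaged at least 1 CPM in every group, and the level of the list moved with the treatments. Their sum was 1649 to 1701 CPM in DMSO, 1966 to 2549 in CH, 2675 to 2863 in 2i, 1723 to 1780 in Fgf2/Activin, 2432 to 2606 in Esrrb floxed and 1465 to 1545 in Esrrb null samples. Nanog, Zfp42 and Sox2 were called higher with the inhibitors in both CH against DMSO and 2i against Fgf2/Activin. Utf1 was called lower in both, and the other 2 of the 6 were not called. The trophoblast markers summed to 21.4 to 30.6 CPM in DMSO, 49.6 to 95.9 in CH, 14.7 to 17.8 in 2i and 22.3 to 23.95 in Fgf2/Activin. Of the 3 tested, Cdx2 was called higher and Eomes lower in both CH against DMSO and 2i against Fgf2/Activin. Markers of 2-cell-like cells, which also express germline genes, summed to 1.44 CPM at most in any sample. The 6 markers of primordial germ cells moved with the treatments, summing to 16.3 to 41.4 CPM in DMSO, 133 to 194 in CH, 185 to 336 in 2i, 15.0 to 30.4 in Fgf2/Activin, 101 to 109 in Esrrb floxed and 72.6 to 113 in Esrrb null samples, and none of the 6 was at 0 in any group. Nanos3, Prdm14, Dppa3, Kit and Tfap2c were called higher in both CH against DMSO and 2i against Fgf2/Activin, and none of the 6 lower. Of the same list, Nanos3 was called higher and Kit lower in Esrrb null samples. The feeder cell markers also moved, at 16.9 to 50.4 CPM in DMSO and 5.52 to 7.75 in CH, with Lum and Postn at 0 in all DMSO samples. In the Esrrb null samples the primitive endoderm markers summed to 4.28 to 7.32 CPM and the trophoblast markers to 39.8 to 50.7, against 1.79 to 3.13 and 27.5 to 37.2 in the floxed samples. Pdgfra and Gata4 of the first list were called higher there and Sox7 lower, and Krt7 and Cdx2 of the second were called higher. Of the feeder markers tested there, Dcn and Col1a2 were called higher in null samples, from 0 to 7 counts a sample in floxed to 23 to 66 in null, while Thy1 was lower and carried their sum (9.20 to 12.0 against 18.2 to 26.5 CPM). Markers of testis somatic cells summed to between 6.75 and 18.7 CPM in every sample. Of the 5 tested in E14 cells, Star and Amh were called higher and Sox9 lower in CH against DMSO. Insl3 and Star were called higher and Wt1 and Sox9 lower in 2i against Fgf2/Activin. Neither of the 2 tested in Esrrb fl/fl cells was called. The part of these lists in the results below was not tested. In bulk samples fewer cells of a type and less RNA per cell cannot be told apart.

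The promoters of the set were described by their CpG content and by short motifs. Methylated promoters were part of the choice by name, so these features may follow in part from that choice. RefSeq promoters (GRCm38.p6, 250 bases before to 50 after the start) were found for 33 of the 40 genes. They held a median of 19 CpG, against 14 in 16453 protein-coding genes. The E-box CACGTG, read on both strands, was present in 15 of the 33 (45.5%) and in 8.09% of all protein-coding promoters. The E2F6 motif TTCCCGC, or GCGGGAA on the other strand, was present in 11 (33.3%) and in 6.24% of all. Neither motif holds the other, but each holds a CpG, and the comparison with all promoters was not matched for CpG content. The TCF/LEF motif CTTTGAT and the Esrrb motif TCAAGGTCA were found in none of the 33, and in 3.17% and 0.334% of all promoters. Among the roles, the E-box was most frequent in the piRNA pathway, in 7 of 9 promoters, and the E2F6 motif in the group of other germline genes, in 5 of 8. A match of letters is a description and no sign that a factor was bound.

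**Figure D1:**
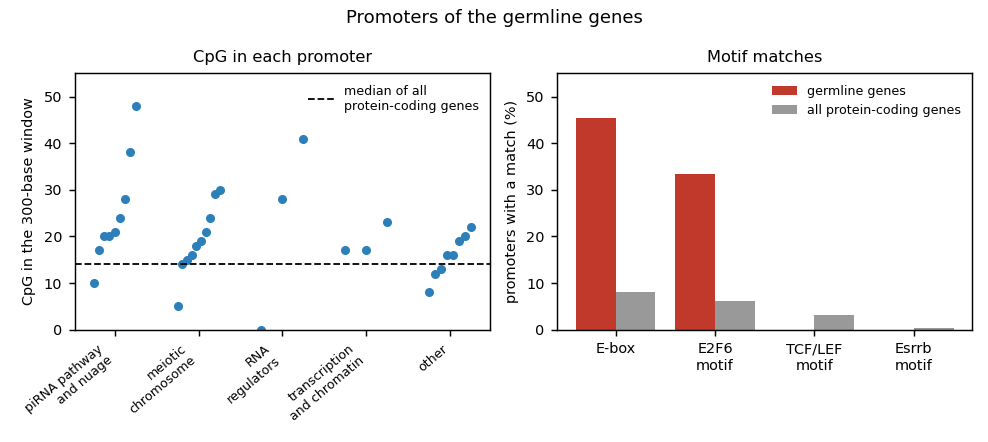
CpG dinucleotides in the promoter of each of 33 germline genes, grouped by role, with the median of all protein-coding genes as a dashed line (left), and the percentage of promoters with each motif among the germline genes and among all protein-coding genes (right). The medians were 19 and 14 CpG, and the E-box was present in 45.5% against 8.09%.

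The stretches below show 120 bases of 9 of these promoters, 5′ to 3′ and wholly before the start, with no annotated exon in them. Capitals mark the E-box and the E2F6 motif. The first 3 belong to piRNA genes that were low in CH and 2i, and the next 3 to meiotic and transcription genes with an E-box near the start. The last 3 belong to genes that were high in CH and 2i, of which Trap1a holds neither motif in its window. Among these, no weight is placed on the calls of Tdrd9, for a reason given below.
Mael, chr1:166238875-166238994, minus strand: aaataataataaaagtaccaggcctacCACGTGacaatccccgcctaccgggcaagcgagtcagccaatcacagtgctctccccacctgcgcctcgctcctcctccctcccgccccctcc
Mov10l1, chr15:88982744-88982863, plus strand: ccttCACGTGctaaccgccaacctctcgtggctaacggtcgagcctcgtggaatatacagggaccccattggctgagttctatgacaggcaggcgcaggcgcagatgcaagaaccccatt
Tdrd1, chr19:56826089-56826208, plus strand: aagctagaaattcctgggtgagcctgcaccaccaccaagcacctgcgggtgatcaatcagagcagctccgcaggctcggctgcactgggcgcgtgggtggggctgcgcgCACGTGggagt
Sycp3, chr10:88459432-88459551, plus strand: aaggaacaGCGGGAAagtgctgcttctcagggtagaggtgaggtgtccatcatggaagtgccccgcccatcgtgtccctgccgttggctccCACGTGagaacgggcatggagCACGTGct
Hormad1, chr3:95559557-95559676, plus strand: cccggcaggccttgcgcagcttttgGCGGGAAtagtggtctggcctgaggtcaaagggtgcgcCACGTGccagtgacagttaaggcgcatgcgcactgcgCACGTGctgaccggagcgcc
Taf7l, chrX:134476491-134476610, minus strand: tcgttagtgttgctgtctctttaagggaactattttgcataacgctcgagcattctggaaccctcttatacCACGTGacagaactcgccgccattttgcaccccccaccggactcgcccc
Tdrd9, chr12:111971369-111971488, plus strand: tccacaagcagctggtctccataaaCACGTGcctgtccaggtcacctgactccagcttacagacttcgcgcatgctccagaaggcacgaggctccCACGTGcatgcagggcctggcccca
Rpl10l, chr12:66284402-66284521, minus strand: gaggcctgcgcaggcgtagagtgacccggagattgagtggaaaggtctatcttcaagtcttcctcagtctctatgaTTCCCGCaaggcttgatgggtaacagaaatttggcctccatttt
Trap1a, chrX:139333563-139333682, plus strand: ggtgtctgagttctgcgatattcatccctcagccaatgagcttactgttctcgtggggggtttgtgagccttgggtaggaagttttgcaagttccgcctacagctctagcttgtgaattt

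Tdrd9, Sycp3 and Hormad1 each carried the E-box at 2 places, and the latter pair also carried the E2F6 motif. Among genes called in 2i against Fgf2/Activin, described next, the 5 higher ones with a promoter held 8 to 20 CpG (median 13) and the 10 lower ones 5 to 41 (median 20), ranges that overlap.

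The set was not uniformly silent. Of the 40 genes, 27 averaged at least 1 CPM in every one of the 6 groups, and 5 (Asz1, Tdrd6, Tex101, Tuba3b and Nanos2) stayed under 1 CPM in all of them. Per kilobase of exon, the highest level in DMSO was that of Sycp3, with 35.1 ± 9.26 CPM per kb (SD, n = 3), followed by Syce2 with 30.7 ± 2.93, and these did not differ beyond their spread. In CH the order was led by Trap1a with 132.7 ± 4.70 CPM per kb, then Rpl10l with 55.2 ± 2.58 and Tex19.1 with 40.5 ± 8.67. Trap1a also led in 2i, at 149 ± 4.07, and in the Esrrb floxed and Esrrb null samples, at 323 ± 20.3 and 317 ± 27.6, while in Fgf2/Activin Syce2 (44.3 ± 5.69) and Sycp3 (39.5 ± 8.09) stood first. Levels of the 2 cell lines were not compared by a test.

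The first question was whether germline genes moved when CH kept Wnt signalling active. CH samples had higher levels of 5 germline genes (Trap1a, Tdrd9, Morc1, Rpl10l and Dnd1) and lower levels of 7 (Syce3, Sycp3, Tdrd1, Mov10l1, Mael, Tuba3a and Slc25a31) than DMSO samples, and the other 25 of the 37 tested were not called (edgeR quasi-likelihood test, called where the adjusted p is below 0.01 and the log2 fold change passes 1 in either direction). These were 13.5% and 18.9% of the genes of the set, beside 7.51% called higher and 10.2% called lower of all 16413 genes tested. Tdrd9 is counted here, but it passed the filter on low counts only through CH and 2i, where it was high. No weight is placed on its call. The median log2 fold change was 0.13 over the set and -0.00 over all genes. The groups did not overlap for 13 germline genes higher and 10 lower in CH, beside 24.5% and 25.2% of all genes. With the replicate number as a block, 8 germline genes were called higher, adding Tdrd5, Rec8 and Tex15, and 8 lower, adding Smc1b. Over all genes the block called 1522 higher and 2086 lower, in place of 1233 and 1674.

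The same 2 branches were seen when 2i was compared with Fgf2/Activin, which shares no samples with the first comparison and sets the naive state against the epiblast-like one. Here 6 germline genes were higher in 2i (Trap1a, Tdrd9, Morc1, Tex14, Rpl10l and Sohlh2) and 12 lower (Tdrd1, Tdrd6, Mael, Mov10l1, Slc25a31, Sycp3, Syce3, Tuba3b, Ddx4, Syce2, Ddx25 and Tex11), 16.2% and 32.4% of 37, beside 9.13% and 14.4% of all genes tested. These counts include Tdrd6 and Tdrd9, which passed the filter on low counts only through groups where they were high. They also include Tuba3b, of which no 2i sample reached the cutoff of that filter. No weight is placed on these calls. Of the calls, 10, with Tdrd9 among them, were shared in direction and none was opposite. They made up 83.3% of those in CH against DMSO and 55.6% of those in 2i against Fgf2/Activin, and over all genes the shares were 78.8% and 59.4%, so that the set moved between the 2 comparisons about as all genes did. The groups did not overlap for 11 germline genes higher and 17 lower in 2i, beside 31.1% and 32% of all genes. With the replicate block the counts were 8 higher, adding Zbtb16 and Tex15, and 15 lower, adding Smc1b, Taf7l and Tuba3a. Over all genes the block called 1781 higher and 2733 lower, in place of 1498 and 2359.

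**Figure D2:**
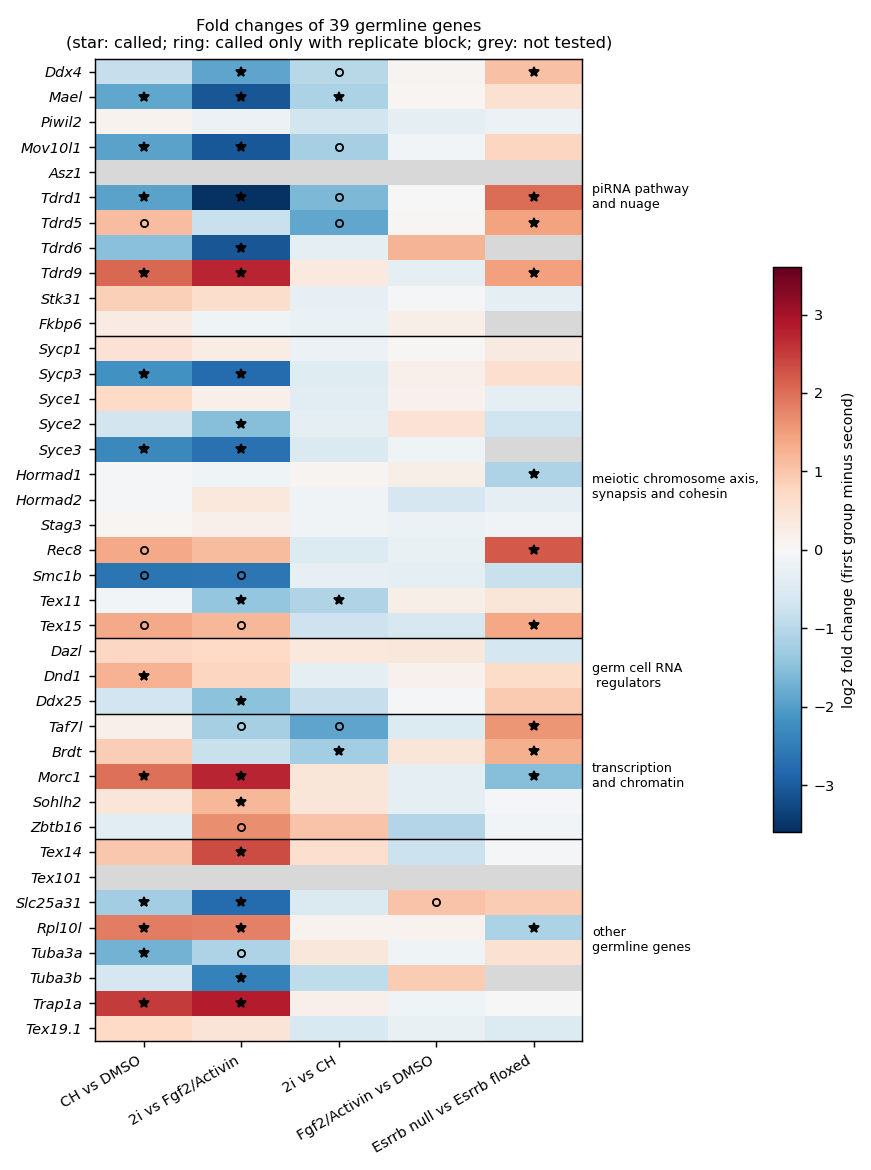
Log2 fold changes of the 39 germline genes in 5 comparisons, as colour from blue (lower in the first group) to red (higher), with genes grouped by role, stars for genes called and rings for genes called only with the replicate block. Trap1a, Morc1 and Rpl10l were higher and Mael, Mov10l1, Tdrd1, Sycp3 and Syce3 lower in both of the first 2 columns.

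The proteins of the piRNA pathway and nuage genes make or use the small RNAs that silence transposons. Of the 10 tested, 3 were called lower in CH against DMSO and 5, with Tdrd6 among them, in 2i against Fgf2/Activin. Of the 12 genes of the meiotic chromosome these were 2 and 4, and of all genes 10.2% and 14.4%. Mael, the maelstrom protein of nuage and of transcriptional silencing, stood at 40.7, 33.5 and 26.0 CPM in DMSO, at 9.20, 8.70 and 9.76 in CH, at 3.94, 4.54 and 4.09 in 2i and at 34.7, 35.6 and 35.3 in Fgf2/Activin. No CH or 2i sample reached the lowest DMSO or Fgf2/Activin sample, and every 2i sample was below every CH sample. Its log2 fold change was -1.86 ± 0.15 (SE) in CH against DMSO and -3.07 ± 0.16 in 2i against Fgf2/Activin (adjusted p = 3.35e-06 and 8.52e-08, edgeR). Mov10l1, the helicase that feeds transcripts into piRNA production, stood at 14.9, 11.1 and 8.60 CPM in DMSO, at 4.12, 2.22 and 2.72 in CH, at 1.32, 1.56 and 1.03 in 2i and at 12.1, 9.89 and 10.6 in Fgf2/Activin, again with no overlap between the inhibitor groups and the others. Its log2 fold changes were -1.94 ± 0.27 and -3.05 ± 0.29 (adjusted p = 0.000185 and 6.81e-06, edgeR).

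Tdrd1, a Tudor domain scaffold that binds the arginine-methylated tails of PIWI proteins, had the largest fold change of the set in 2i against Fgf2/Activin. It stood at 6.30, 8.23 and 11.7 CPM in DMSO, at 2.69, 2.35 and 1.76 in CH, at 0.383, 0.914 and 0.906 in 2i and at 6.71, 10.1 and 9.46 in Fgf2/Activin. The groups did not overlap in either comparison, and the log2 fold changes were -1.94 ± 0.32 and -3.55 ± 0.36 (adjusted p = 0.000659 and 1.13e-05, edgeR). Ddx4, the Vasa helicase used to mark germ cells, was lower in 2i than in Fgf2/Activin (log2 fold change -1.90 ± 0.18, adjusted p = 7.48e-06, edgeR), with 6.51, 10.6 and 8.84 CPM against 27.3, 34.8 and 34.9. In CH against DMSO its log2 fold change of -0.82 ± 0.17 was under the minimum for a call, although the CH samples (16.6, 17.99 and 17.1 CPM) were all below the DMSO samples (25.2, 33.5 and 32.4). Tdrd6, another Tudor protein, was called lower in 2i from 1 to 5 counts a sample against 18 to 22, a call lost without 2i replicate 1 or 2 or Fgf2/Activin replicate 2 or 3. No 2i or CH sample of Tdrd6 reached the level that the filter on low counts asks for (0.328 CPM), so it was tested only through the groups where it was high, and no weight is placed on its call.

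Not all piRNA genes were called lower. Tdrd9, a helicase that works with the nuclear PIWI protein, was higher with the inhibitors: 0.240, 0.313 and 0.309 CPM in DMSO, 0.920, 1.21 and 1.52 in CH, 1.50, 1.50 and 1.66 in 2i and 0.211, 0.230 and 0.243 in Fgf2/Activin. Its log2 fold changes were 2.07 ± 0.26 and 2.75 ± 0.26 (adjusted p = 8.45e-05 and 7.88e-06, edgeR), on 7 to 10 counts a sample in the low groups. It too passed the filter only through its high groups, CH and 2i, and no weight is placed on these calls. Piwil2, the PIWI protein of the set, was not called in either comparison (log2 fold changes 0.13 and -0.21) and averaged 22.7 CPM in DMSO, 24.9 in CH, 15.7 in 2i and 18.2 in Fgf2/Activin. Stk31 and Fkbp6 were not called either, and Asz1 had at most 9 counts in any sample and was not tested.

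Among the genes of the meiotic chromosome, the calls were lower only in the test without the replicate block, for some parts of the synaptonemal complex and not for others. The block added higher calls for Rec8 and Tex15 in CH against DMSO and for Tex15 in 2i against Fgf2/Activin, and DESeq2 called Tex15 higher in both. Sycp3, the lateral element protein on which the chromosome axis is built, stood at 53.1, 48.9 and 31.1 CPM in DMSO, at 12.7, 7.88 and 8.88 in CH, at 8.92, 6.16 and 6.87 in 2i and at 61.2, 47.5 and 41.2 in Fgf2/Activin. The groups did not overlap, and the log2 fold changes were -2.18 ± 0.25 and -2.77 ± 0.26 (adjusted p = 5.41e-05 and 6.77e-06, edgeR). Of the exon bases of Sycp3, 52.2% overlap Chpt1 on the other strand, and the counting ignored strand. Chpt1 itself was not called, with log2 fold changes of 0.07 and 0.39. Syce3, a central element protein, was lower in both comparisons (log2 fold changes -2.32 ± 0.43 and -2.69 ± 0.45), from 41 to 115 counts a sample in DMSO to 7 to 21 in CH. Syce2, of the same central element, was called in 2i against Fgf2/Activin alone (-1.54 ± 0.11, adjusted p = 7.09e-07, edgeR), with 28.4 to 31.7 against 77.6 to 99.5 CPM. It had a log2 fold change of -0.66 ± 0.10 in CH against DMSO. Sycp1, the transverse filament that joins the axes, had log2 fold changes of 0.52 and 0.28 and Syce1 of 0.71 and 0.19, none of them called. Tex11, an X-linked recombination gene, was lower in 2i than in Fgf2/Activin (-1.38 ± 0.18, adjusted p = 8.56e-05, edgeR), with 2.61, 2.83 and 3.25 CPM against 6.44, 7.95 and 8.34. In CH against DMSO its log2 fold change was -0.10.

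**Figure D3:**
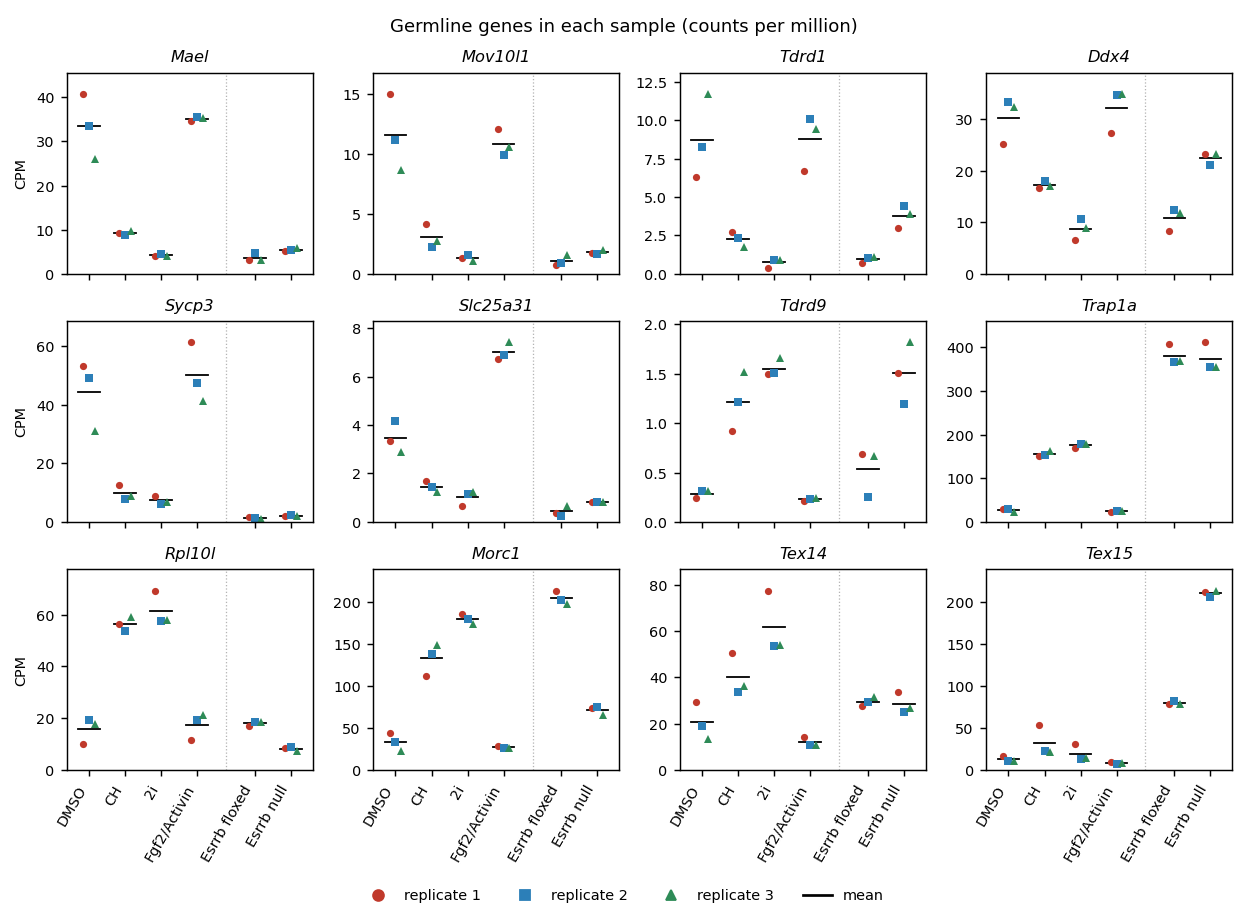
Levels of 12 germline genes in every sample in CPM, with a point for each replicate and a line at the mean of the 3, and E14 groups left and Esrrb fl/fl groups right of the dotted line. Mael stands at 26.0 to 40.7 CPM in DMSO and 3.94 to 4.54 in 2i, and Trap1a at 22.9 to 29.6 in DMSO and 171 to 180 in 2i.

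The genes that were higher with the inhibitors came from other roles. Trap1a, an X-linked gene first known from a mouse tumour antigen, had the smallest adjusted p of the set. It stood at 29.6, 29.6 and 22.9 CPM in DMSO, at 152, 154 and 163 in CH, at 171, 180 and 178 in 2i and at 23.3, 25.4 and 25.6 in Fgf2/Activin. The replicates of a group lay close together, and the log2 fold changes were 2.51 ± 0.10 and 2.83 ± 0.10 (adjusted p = 2.39e-08 and 1.35e-08, edgeR). Morc1, a chromatin ATPase needed for transposon silencing in male germ cells, stood at 44.4, 33.3 and 23.4 CPM in DMSO, at 113, 138 and 149 in CH, at 186, 181 and 175 in 2i and at 28.3, 26.5 and 26.3 in Fgf2/Activin. Its log2 fold changes were 1.98 ± 0.19 and 2.74 ± 0.19 (adjusted p = 1.29e-05 and 8.58e-07, edgeR).

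Rpl10l, a retrogene copy of a ribosomal protein that stands in for it in male meiosis, was at 10.1, 19.3 and 17.9 CPM in DMSO, at 56.4, 53.8 and 59.1 in CH, at 69.2, 57.3 and 57.9 in 2i and at 11.5, 19.4 and 21.2 in Fgf2/Activin. Its log2 fold changes were 1.84 ± 0.25 and 1.83 ± 0.25 (adjusted p = 0.000182 and 0.00013, edgeR). Of its transcript, 62.5% is shared with Gm14460, which averaged at most 0.016 CPM in any group. Tex14, which keeps the bridges between germ cells open, was higher in 2i than in Fgf2/Activin (log2 fold change 2.36 ± 0.28, adjusted p = 4.59e-05, edgeR), with 77.4, 53.6 and 54.1 CPM against 14.3, 11.0 and 10.7. In CH against DMSO its log2 fold change was 0.96, and it was not called with or without the minimum fold change. It was called higher there without DMSO replicate 1, and with replicates 2 and 3 only. Dnd1, an RNA-binding protein of primordial germ cells, was called higher in CH alone (1.26 ± 0.25, adjusted p = 0.00202, edgeR), with 55.8, 35.3 and 29.4 CPM against 16.3, 18.3 and 15.6, and without CH replicate 1 it was not called. Sohlh2, a transcription factor of early spermatogonia, was called higher in 2i against Fgf2/Activin (1.19 ± 0.31, adjusted p = 0.00727, edgeR), with 29.4, 14.3 and 14.1 CPM against 8.75, 8.31 and 8.20. That call was lost without 2i replicate 1 or without any 1 of the Fgf2/Activin samples. Dazl, the translational regulator of germ cells, had log2 fold changes of 0.73 and 0.71 and was not called.

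Of the remaining genes, Slc25a31, the ADP/ATP carrier of sperm, stood at 3.34, 4.16 and 2.89 CPM in DMSO, at 1.70, 1.44 and 1.24 in CH, at 0.662, 1.15 and 1.22 in 2i and at 6.74, 6.87 and 7.40 in Fgf2/Activin. Its log2 fold changes were -1.24 ± 0.24 and -2.78 ± 0.25 (adjusted p = 0.00169 and 4.81e-06, edgeR), and the first call was lost without CH replicate 3 (adjusted p = 0.0104). Ddx25, a helicase of the chromatoid body, was lower in 2i than in Fgf2/Activin (-1.46 ± 0.13), with replicates between 2.86 and 3.69 against 8.81 and 9.70 CPM. Of the transcript of Tuba3a, a testis alpha-tubulin, 99.7% is shared with Tuba3b and the antisense 4930417O13Rik together, and 81.5% of that of Tuba3b with Tuba3a, so that their counts cannot be assigned firmly. Tuba3a was called lower in CH (-1.69 ± 0.44, adjusted p = 0.0096, edgeR), a call lost without any 1 of the 6 samples but DMSO replicate 3, and Tuba3b lower in 2i (-2.43 ± 0.36) from 3 to 7 counts against 22 to 27. No 2i sample of Tuba3b reached the level that the filter asks for, so no weight is placed on its call.

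The comparison of 2i with CH asks what the Mek inhibitor adds. It shares the CH samples with the first comparison and the 2i samples with the second. No germline gene was called higher in 2i, where 2 had an unadjusted p under 0.05, DESeq2 called 0 and 0.317% of all genes were called. Lower in 2i were Brdt, Mael and Tex11, 8.11% of the set beside 1.67% of all genes. Mael had a log2 fold change of -1.14 ± 0.15 (adjusted p = 0.00128, edgeR). Brdt, a testis bromodomain protein, stood at 1.94, 2.45 and 1.84 CPM in CH and 0.766, 0.796 and 1.03 in 2i (-1.26 ± 0.23, adjusted p = 0.00839, edgeR). Tex11 had a log2 fold change of -1.08 ± 0.18 (adjusted p = 0.00482, edgeR). The call of Brdt was lost without any 1 of the 6 samples and that of Tex11 without any 1 but CH replicate 2, and in the fit of the 6 samples alone none of the 3 was called. The replicate block called 8, adding Ddx4, Mov10l1, Tdrd1, Tdrd5 and the X-linked Taf7l, and DESeq2 called 7, adding the last 4 of these. Over all genes the block called 534 lower and DESeq2 490, in place of 274. The median log2 fold change of the set was -0.35, and that of all genes -0.00.

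Between Fgf2/Activin and DMSO, which share their samples with the first 2 comparisons, no germline gene was called in either direction by edgeR, beside 0.902% higher and 0.347% lower of all genes. At an unadjusted p under 0.05, 3 germline genes were higher and 2 lower, and the smallest adjusted p was 0.0146, for Syce2. Slc25a31 stood at 6.74 to 7.40 CPM in Fgf2/Activin and 2.89 to 4.16 in DMSO without overlap (log2 fold change 1.01 ± 0.23, adjusted p = 0.0284, edgeR). It was called with the replicate block (adjusted p = 0.00652) and by DESeq2, which made 1 call higher and 0 lower.

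Loss of Esrrb, a nuclear receptor of the naive state, was the fifth comparison, in another cell line and at 24 h. Esrrb null samples had higher levels of 8 germline genes (Rec8, Tdrd1, Taf7l, Tdrd9, Tdrd5, Tex15, Brdt and Ddx4) and lower levels of 3 (Morc1, Rpl10l and Hormad1), 24.2% and 9.09% of the 33 tested, beside 12.8% and 3.87% of all 14893 genes. The median log2 fold change was 0.33 over the set and 0.00 over all genes. The groups did not overlap for 14 germline genes higher and 6 lower, beside 34.4% and 31.5% of all genes. The replicate block gave the same counts of calls, 8 and 3. Asz1, Tdrd6, Fkbp6, Syce3, Tex101 and Tuba3b were too low to be tested here.

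Of the 4 piRNA genes called, Tdrd1 had the largest change, with 2.97, 4.40 and 3.92 CPM in null against 0.691, 1.02 and 1.09 in floxed samples (log2 fold change 2.00 ± 0.25, adjusted p = 0.000185, edgeR). Tdrd5, needed for nuage assembly, stood at 27.5, 43.5 and 45.3 against 9.88, 16.9 and 16.1 CPM (1.44 ± 0.23, adjusted p = 0.000818, edgeR). Ddx4 stood at 23.2, 21.1 and 23.2 against 8.24, 12.4 and 11.8 CPM (1.05 ± 0.15, adjusted p = 0.000355, edgeR), and was not called without Esrrb floxed replicate 1. Tdrd9 (1.48 ± 0.35) was called from 25 to 38 counts against 5 to 13, and lost its call without null replicate 1 or 3 or floxed replicate 2 or 3. The groups did not overlap for any of these 4 genes. Mael and Mov10l1, low in CH and 2i, had log2 fold changes of 0.56 and 0.77 here and were not called (adjusted p = 0.0305 and 0.0505, edgeR).

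Tex15, which recruits silencing to young transposons and is needed in meiotic recombination, had the smallest adjusted p of the set, with 212, 206 and 213 CPM in null against 78.9, 82.1 and 78.1 in floxed samples (1.40 ± 0.05, adjusted p = 5.99e-07, edgeR). Rec8, the meiotic kleisin of cohesin, stood at 12.7, 14.02 and 16.4 against 2.55, 3.53 and 3.31 CPM (2.19 ± 0.16, adjusted p = 1.34e-05, edgeR), the largest fold change of the set in this comparison. Its cohesin partners Stag3 and Smc1b had log2 fold changes of -0.11 and -0.79 and were not called. Hormad1, a chromosome axis protein, was lower in the null samples, at 5.99, 9.24 and 7.70 against 11.7, 18.9 and 18.5 CPM (-1.10 ± 0.21, adjusted p = 0.00227, edgeR). Of the transcript of Hormad1, 65.9% is shared with other genes, among them Gm15529, which had no counts in these samples. Its call was lost without null replicate 1 or 3 or floxed replicate 2 or 3.

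Taf7l, a germ cell paralogue of a TFIID subunit, was higher in the null samples, with 3.94, 3.97 and 2.87 against 1.17, 1.18 and 1.24 CPM (1.58 ± 0.21, adjusted p = 0.000251, edgeR), and so was Brdt (1.28 ± 0.31, adjusted p = 0.00701, edgeR), with 1.70, 2.78 and 2.73 against 0.584, 1.18 and 1.19. The Brdt call was lost without any 1 of the 6 samples but null replicate 1. Morc1 was lower, at 73.6, 74.9 and 65.7 against 214, 203 and 198 CPM (-1.52 ± 0.06, adjusted p = 1.31e-06, edgeR), and Rpl10l at 8.52, 8.95 and 7.22 against 17.1, 18.7 and 18.4 (-1.13 ± 0.11, adjusted p = 5.3e-05, edgeR). Trap1a stood at 411, 355 and 355 CPM in null and 409, 366 and 368 in floxed samples, which overlap (log2 fold change -0.03 ± 0.07).

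Side by side, CH against DMSO and Esrrb null against floxed, which share no samples, had 4 germline genes called in both. Tdrd1, Morc1 and Rpl10l moved in opposite directions, 25.0% of the calls of the first and 27.3% of the second. Tdrd9 was higher in both, but in E14 cells it passed the filter only through CH and 2i, where it was high. Over all genes the opposite calls were 25.4% and 29.7%, so that the set again stood close to the background. For 2i against Fgf2/Activin, Ddx4 joined the opposite calls, 22.2% and 36.4% for the set and 26.7% and 41.4% for all genes.

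The germline genes were set beside the enzymes of DNA methylation. Dnmt3a, a de novo methyltransferase, stood at 406, 585 and 592 CPM in DMSO, at 96.7, 142 and 125 in CH, at 99.7, 102 and 95.1 in 2i and at 551, 633 and 640 in Fgf2/Activin. Dnmt3b had log2 fold changes of -2.00 ± 0.23 in CH against DMSO and -2.84 ± 0.24 in 2i against Fgf2/Activin, beside -2.12 and -2.62 for Dnmt3a. The groups with low Dnmt3a and Dnmt3b had 7 (18.9%) and 12 (32.4%) germline genes called lower in these comparisons, beside 10.2% and 14.4% of all genes. Called higher were 5 (13.5%) and 6 (16.2%), beside 7.51% and 9.13% of all genes. These counts include Tdrd9 in both comparisons and Tdrd6 and Tuba3b in the second, calls on which no weight is placed. Dnmt3l, the cofactor without a catalytic site, was not called in either comparison (0.89 and 0.91). Without replicate 1 of every group it was called higher in both (1.51 and 1.27) and lower in 2i against CH (-1.09). In addition, Dnmt3c, the methyltransferase of male germ cells, had at most 11 counts in any sample and was not tested. Dnmt1 and Uhrf1 were not called in any comparison, with absolute log2 fold changes of at most 0.48. Tet2 was higher (1.64 ± 0.28 and 2.26 ± 0.28) and Tet3 lower (-2.02 ± 0.23 and -3.10 ± 0.25) in CH and in 2i, and Tet1 was not called.

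**Figure D4:**
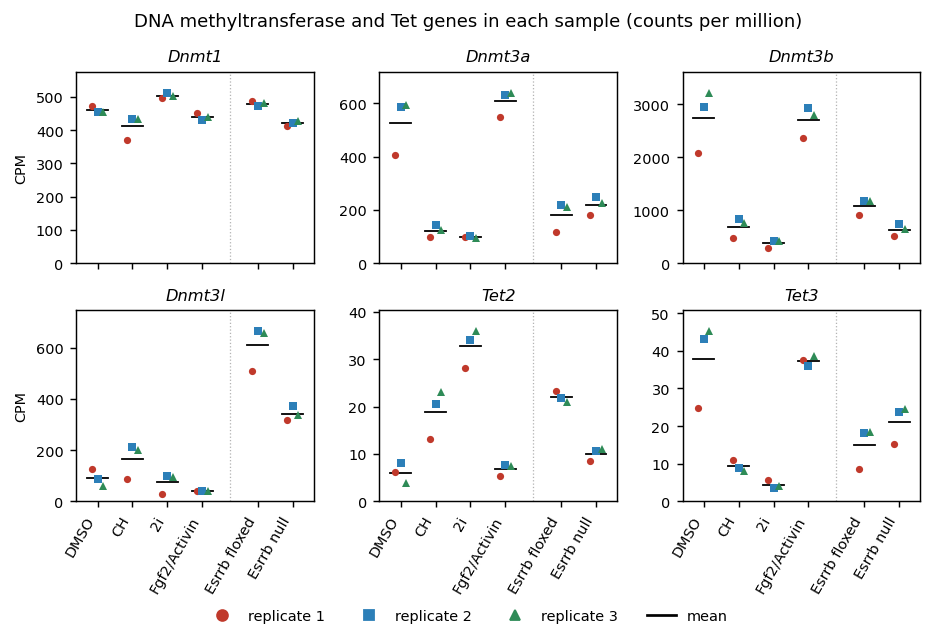
Levels of 6 genes of DNA methylation and demethylation in every sample in CPM, drawn as for the germline genes. Dnmt3a stands at 406 to 592 CPM in DMSO and 96.7 to 142 in CH, and Tet2 is higher and Tet3 lower in CH and 2i than in DMSO and Fgf2/Activin.

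In the Esrrb null samples Dnmt3a was not called (0.27 ± 0.22), Dnmt3b and Dnmt3l had log2 fold changes of -0.80 ± 0.14 and -0.83 ± 0.10, under the minimum, and Tet2 was lower (-1.13 ± 0.12, adjusted p = 7.76e-05, edgeR). Of the 25 genes listed as repressors of germline genes, PRC1.6 subunits and H3K9 methylation factors among them, 2 were higher in CH than in DMSO, 8% beside the 7.51% of all genes, and so near the background: Prdm14 (5.44), a factor of naive and germ cells that holds down the Dnmt3 genes, and Zfp57 (1.61), which keeps imprints methylated. The same 2 were higher in 2i than in Fgf2/Activin (7.69 and 2.58), where the PRC1.6 subunit Yaf2 was lower (-1.40). Yaf2 was called higher in the Esrrb null samples (1.30), and none of the 25 was called lower there. The log2 fold changes of Mga, Max, E2f6 and Pcgf6 lay between -0.14 and 0.37 in the first 2 comparisons, and those of Mga and Pcgf6 were -0.48 and -0.67 in the Esrrb null samples, none of them called. In these samples 21 of the 25 were below all floxed samples, a larger share than the 31.5% of all genes given above. The median log2 fold change of the 25 was -0.39, beside 0.00 over all genes.

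The 49 other germline genes, listed but no members and also chosen with earlier results known, were counted in the same way. In CH against DMSO, 4 of the 45 tested were higher and 8 lower, 8.89% and 17.8% beside 7.51% and 10.2% of all genes. In 2i against Fgf2/Activin these were 5 and 18, 11.1% and 40% beside 9.13% and 14.4%, so that the shares called higher were near the background in both. Sycp2, the partner of Sycp3 in the lateral element, was lower in both (-2.26 and -4.63), as were the meiotic regulator Meioc (-1.90 and -3.29) and the piRNA gene Tdrkh (-2.46 and -3.09). Tdrd12 (1.20 and 1.67) and the helicase Mov10 (1.49 and 2.05) were higher. In 2i against CH 2 of the 45 were lower and in Fgf2/Activin against DMSO none was called. In the Esrrb null samples 6 of the 34 tested were higher, and Tdrd12 was lower (-1.09), 17.6% and 2.94% beside 12.8% and 3.87% of all genes. From the largest change down, the 6 were Spo11, Tdrd7, Tdrkh (2.49), Sycp2 (1.53), Rhox6 and Meioc (1.09). Rhox6 was also called higher in CH against DMSO and in 2i against Fgf2/Activin, and Spo11 was called in neither.

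Levels of some of the genes also ran with the replicate number. In E14 cells, replicate 1 was the highest of the 3 in all 4 groups for 12 of the 37 germline genes tested (32.4%), beside 21.4% of all genes tested, so that this was not confined to germline genes. Smc1b, the meiotic cohesin subunit, stood at 37.6, 7.67 and 3.74 CPM in DMSO, at 5.99, 1.05 and 0.840 in CH, at 4.77, 0.826 and 0.937 in 2i and at 25.5, 7.10 and 6.40 in Fgf2/Activin. The first value of each group is 3.78 to 6.60 times the mean of the other 2. For Rec8 this ratio was 2.13 to 5.39, for Hormad2 2.07 to 2.83, for Stag3 1.83 to 2.76, for Tuba3a 1.60 to 2.48 and for Tdrd5 1.50 to 3.13. Syce1, Stk31, Ddx4, Tdrd9 and Zbtb16 went the other way, with replicate 1 lowest in all 4 groups (13.5% beside 18.4% of all genes tested). With counts scaled to library totals, an alternative added after the data were seen, the 12 genes were the same and only Syce1 and Zbtb16 of these 5 remained. With the number as a block, Smc1b was called lower in CH against DMSO (-2.57) and in 2i against Fgf2/Activin (-2.75), while without the block its log2 fold changes of -2.63 ± 1.07 and -2.59 ± 1.08 were not called (adjusted p = 0.0696 and 0.0658, edgeR). Tdrd5, not called in the test without the block, was called with it, higher in CH against DMSO (1.31) and lower in 2i against CH (-2.05). Without replicate 1 it was called in both as well. Without replicate 1 of every group, an alternative chosen after the data were seen, 8 germline genes were called higher and 8 lower in CH against DMSO, 6 and 16 in 2i against Fgf2/Activin, 0 and 5 in 2i against CH, 1 and 0 in Fgf2/Activin against DMSO and 7 and 3 in Esrrb null against floxed samples. Over all genes this setting called 1600 and 2202, 1775 and 2766, 214 and 554, 318 and 181, and 1971 and 635 in that order. The main test called 1233 and 1674, 1498 and 2359, 52 and 274, 148 and 57, and 1909 and 576.

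**Figure D5:**
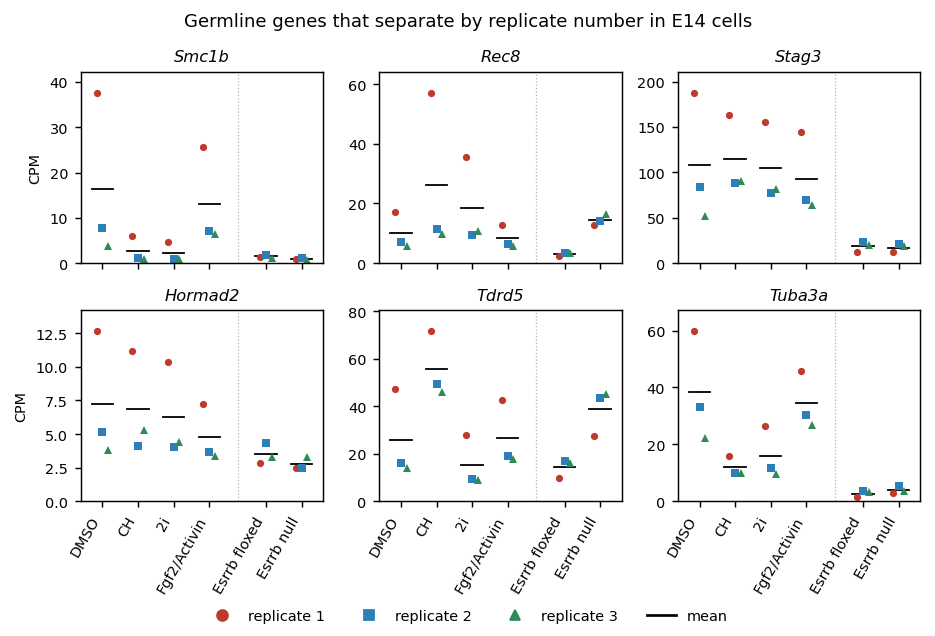
Levels of 6 germline genes in every sample in CPM, with replicate numbers as colours and shapes and a line at the mean. In the 4 E14 groups replicate 1 stands above both other replicates for all 6 genes, at 1.50 to 6.60 times their mean.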

How the data were processed

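Poly(A) RNA of 18 mouse ES cell samples was sequenced with a stranded kit. The deposited values are counts of reads per Ensembl gene: the authors aligned reads to mm10 with TopHat2 (v2.1.1) and counted with HTSeq (v0.7.2) on the GRCm38 annotation with strand ignored, so that reads of overlapping antisense genes cannot be separated. The annotation release is not given in the sources used here. All 18 columns were matched to samples by name.

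Counts were tested with edgeR (4.0.16, R 4.3.3) by the quasi-likelihood test, with TMM scaling, filterByExpr and Benjamini-Hochberg adjustment over all genes tested. The 12 E14 samples shared a fit and the 6 Esrrb fl/fl samples had their own. Calls needed an adjusted p below 0.01 and a log2 fold change past 1 in either direction. All adjusted p-values are from this test unless DESeq2 (1.42.0) is named. Levels are CPM on TMM-adjusted library sizes, set separately for the E14 and Esrrb fl/fl samples. The script was tested on simulated data. No pair of replicates agreed within counting noise (chi-square per gene of at least 1.46).

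Deviations from the group mean correlated between samples of the same replicate number, at 0.370 to 0.825 over 18 pairs in E14 and 0.347 to 0.545 over 3 pairs in Esrrb fl/fl cells, so the numbers pair the samples by the data. The labels do not say what a number shares. The study used DESeq2 with the same thresholds and its methods name no design, so edgeR without the replicate block was the main test, and the block is given where it changes a call.

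The members and gene lists were chosen with earlier results of these data known. Named were, for each comparison, up to 10 called genes with the largest fold changes, uncalled genes of at least 1 CPM or of the same complex, genes under the filter, and the methylation genes. Further called genes were named after their values were seen. Shared transcript sequence was found with blastn (2.17.0) at 95% identity over at least 75 bases. Promoters are those of RefSeq on GRCm38.p6.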

Additional observations from a re-analysis of the deposited data

How the results depend on the processing

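The counts of germline genes called kept within 1.5 times their value under most alternatives, and no log2 fold change of a named gene changed sign where it was called. In CH against DMSO, 8 were higher with the replicate block, 9 with no minimum fold change and 8 with replicates 2 and 3 only, in place of 5. In 2i against CH, the 3 lower calls became 7 with DESeq2, 8 with the replicate block, 6 with no minimum fold change, 5 with replicates 2 and 3 only and 0 in the fit of the 6 samples compared, which has fewer samples. In Fgf2/Activin against DMSO, 1 was higher with DESeq2, with the replicate block and with replicates 2 and 3 only. In Esrrb null against floxed samples, 5 were lower with no minimum fold change. Beyond the calls named beside the results, the replicate block changed no other call of a germline gene. With 1 sample left out at a time, the germline genes called higher and lower ranged over 4 to 6 and 5 to 7 in CH against DMSO, 5 to 6 and 11 to 13 in 2i against Fgf2/Activin, 0 and 1 to 2 in 2i against CH, 0 and 0 in Fgf2/Activin against DMSO, and 6 to 7 and 2 to 3 in Esrrb null against floxed samples. The cause of these differences was not tested.

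Over all genes, dropping the minimum fold change gave 2246 higher in CH against DMSO, 2922 higher in 2i against Fgf2/Activin, 136 higher in 2i against CH, 101 lower in Fgf2/Activin against DMSO, and 3664 higher and 2957 lower in Esrrb null samples. In 2i against CH the higher and lower calls were 107 and 490 with DESeq2, 138 and 534 with the replicate block, 28 and 72 in the 6 samples alone, and 214 and 554 with replicates 2 and 3 only. In Fgf2/Activin against DMSO they were 248 and 126, 275 and 149, 62 and 25, and 318 and 181 in the same order. With 1 sample left out at a time they ranged over 17 to 45 and 124 to 245 in 2i against CH, and 84 to 124 and 28 to 47 in Fgf2/Activin against DMSO. Genes under about 10 counts a sample were at the limit of what this depth can resolve.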
